A study of Mus musculus with 11 samples.

Results

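The genes described here are the mouse MHC class II genes together with Cd74 and Ciita. They were taken by symbol from the deposited expression table, and all 10 of them were found among its 17475 genes. They are Cd74, H2-Aa, H2-Ab1, H2-Eb1, H2-DMa, H2-DMb1, H2-DMb2, H2-Oa, H2-Ob and Ciita. The genes named H2, for the mouse MHC, lie together on chromosome 17 of GRCm38, from the start of H2-Oa at 34092340 to the end of H2-Eb1 at 34316674 in the GENCODE M21 annotation. Ciita is at chr16:10480059-10528418 on the plus strand, and Cd74 is on chromosome 18.

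MHC class II molecules are pairs of an alpha and a beta chain that show peptides from engulfed proteins to CD4+ T cells. CD74, the invariant chain, holds the pair together and blocks its groove until lysosomal proteases cut it down, and the H2-DM pair then swaps the last fragment of CD74 for a peptide while the H2-O pair restrains H2-DM. CIITA is the coactivator that switches these genes on: it does not bind DNA itself, but docks on the RFX, CREB and NF-Y factors that sit on the X and Y boxes of their promoters.

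The 11 libraries hold messenger RNA of macrophages from the mammary tumours of 6 female mice, whose strain is given as backcrossed to B6. All the mice carried PyMT, the polyoma middle T oncogene that gives mammary tumours, were lethally irradiated at 7 weeks of age, received 3 M (M for mega) bone marrow cells of wild-type B6 mice, and were put on a low protein diet 2 weeks after that, for 6 weeks. The control mice (numbers 1, 3 and 5) carried PyMT alone, and the MYC mice (2, 4 and 6) also carried S100a8-cre, which is active in myeloid cells, and Rosa26-LSL-MYC, a MYC transgene that Cre switches on. Viable CD45+ cells negative for SiglecF, Ly6G, B220 and Ly6C and positive for F4/80 were split into Vcam+ tumour-associated macrophages (TAMs) and Vcam- FOLR2+ mammary tissue macrophages (MTMs). There were 3 libraries each of control TAMs, control MTMs and MYC TAMs, and 2 of MYC MTMs, because mouse 6 gave TAMs only. The donor marrow was wild type, so sorted cells of donor origin would not carry the transgenes, and the share of host cells is not given in the sources used here. No mouse was on another diet, so the diet has no comparison here.

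Levels are the deposited log2 values. They behaved as the log2 of an abundance per gene length plus 1, a form inferred from the values and not stated, so levels of different genes are set side by side with that caution, and folds of genes near 0 are understated. An estimated 32.4 to 42.8 M reads fell in genes per library. Folr2, the gene of the MTM gate, was at 7.67 to 8.45 in the MTM libraries and at 0.96 to 3.62 in the TAM libraries, the highest of these in MYC mouse 6. Vcam1, the gene of the TAM gate, was at 7.64 to 8.60 in control TAMs but at 0.96 to 2.82 in MYC TAMs, against 5.25 to 6.86 in control MTMs and 2.31 and 2.32 in MYC MTMs. At the RNA level the libraries labelled as Vcam+ MYC TAMs thus lay below the control MTMs, which are labelled Vcam-, and this goes against the label; every comparison that uses MYC TAMs takes these libraries as labelled. Mouse Myc was at 2.66 to 3.18 in control TAMs and 1.78 to 2.16 in MYC TAMs; the origin of the transgene is not given in the sources used here, so these values do not check it. Of 10 general macrophage genes, Csf1r, C1qb and Lyz2 were at 7.59 or above in every library, and Aif1 was at 0.24 in control TAM mouse 5 but at 5.21 or above in all the others.

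The promoters show what the class II genes share in sequence. RefSeq's promoter table, on GRCm38.p6, held 7 of the 10 genes; Cd74, H2-Ab1 and Ciita were not matched. Windows of 65 bases are printed for H2-Aa, H2-Eb1, H2-Ob and H2-DMb2, as an alpha chain, a beta chain, an H2-O chain and an H2-DM chain. The capitals mark TGATTGG, a Y box sequence, and AACNNATGATG, an X box sequence, where N is any base; its first letters are those shared before ATGATG by the class II promoters that have it upstream of TGATTGG.

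H2-Aa: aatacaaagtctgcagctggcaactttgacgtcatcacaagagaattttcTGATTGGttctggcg
H2-Eb1: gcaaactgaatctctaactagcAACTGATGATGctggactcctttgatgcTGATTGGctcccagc
H2-Ob: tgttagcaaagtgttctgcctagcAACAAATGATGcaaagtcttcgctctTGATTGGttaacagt
H2-DMb2: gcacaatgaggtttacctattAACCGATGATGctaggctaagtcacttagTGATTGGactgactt

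The windows are at chr17:34287859-34287923 on the minus strand for H2-Aa, and on the plus strand at chr17:34305756-34305820 for H2-Eb1, chr17:34238796-34238860 for H2-Ob and chr17:34145107-34145171 for H2-DMb2. The last lies within the H2-DMb2 gene of GENCODE M21 and overlaps no untranslated region annotated there, and the others lie upstream of their genes. The Y box sequence began 50 bases before the RefSeq start in H2-Aa, 61 in H2-Eb1, 59 in H2-Ob and 92 in H2-DMb2. Between the X and the Y sequence lay 17 bases in H2-Eb1, 15 in H2-Ob and 18 in H2-DMb2. The X sequence was chosen and marked only where it lay before the Y sequence, within a set distance. Their order and a limit on the spacing thus followed from that choice. Searched on both strands of promoter windows running from 250 bases before to 50 after the start, TGATTGG was found in 6 of the 7 class II genes, all but H2-DMa, and in 7.82% of 32851 promoters. AACNNATGATG was found in 4 of the 7 (H2-DMb1, H2-DMb2, H2-Eb1 and H2-Ob) and in 0.137% of promoters. The pair, with the X sequence 5 to 40 bases before the Y sequence, was found in the same 4 genes and in 0.0122% of all promoters, or 4 of them. Those 4 promoters were the ones of these same 4 genes. These longer sequences were picked after the promoters had been read, so their frequency in the class II genes is a description. The shorter forms searched first were common everywhere: ATTGG, which lies inside TGATTGG, was in 7 of 7 and in 37.4% of promoters, the X box core (CC, 5 bases of any kind, AC, any base, G) was in 5 of 7 and in 43.9%, and that core 10 to 25 bases before ATTGG was in 0 of 7 and in 0.852%.

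In TAMs the class II genes were much lower in MYC than in control mice. Of the 10 genes, 9 fell in limma's test with Benjamini-Hochberg adjustment over all 17475 genes (adjusted p below 0.05), and none rose. Over all genes 12% fell and 15.9% passed in either direction. The median log2 difference, MYC minus control, was -3.09 over the 10 genes and -0.02 over all genes. With each library centred on its median, which moves the all-gene median to 0.19, 5029 genes passed in place of 2778 and 3516 rather than 680 of them were higher, and the same 9 of the set, with H2-Ob, were lower. In all 10 genes every MYC TAM library was below every control TAM library, as was the case for 22.1% of all genes. In these bulk libraries fewer class II-expressing cells and less class II RNA per cell cannot be told apart.

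**Figure D1:**
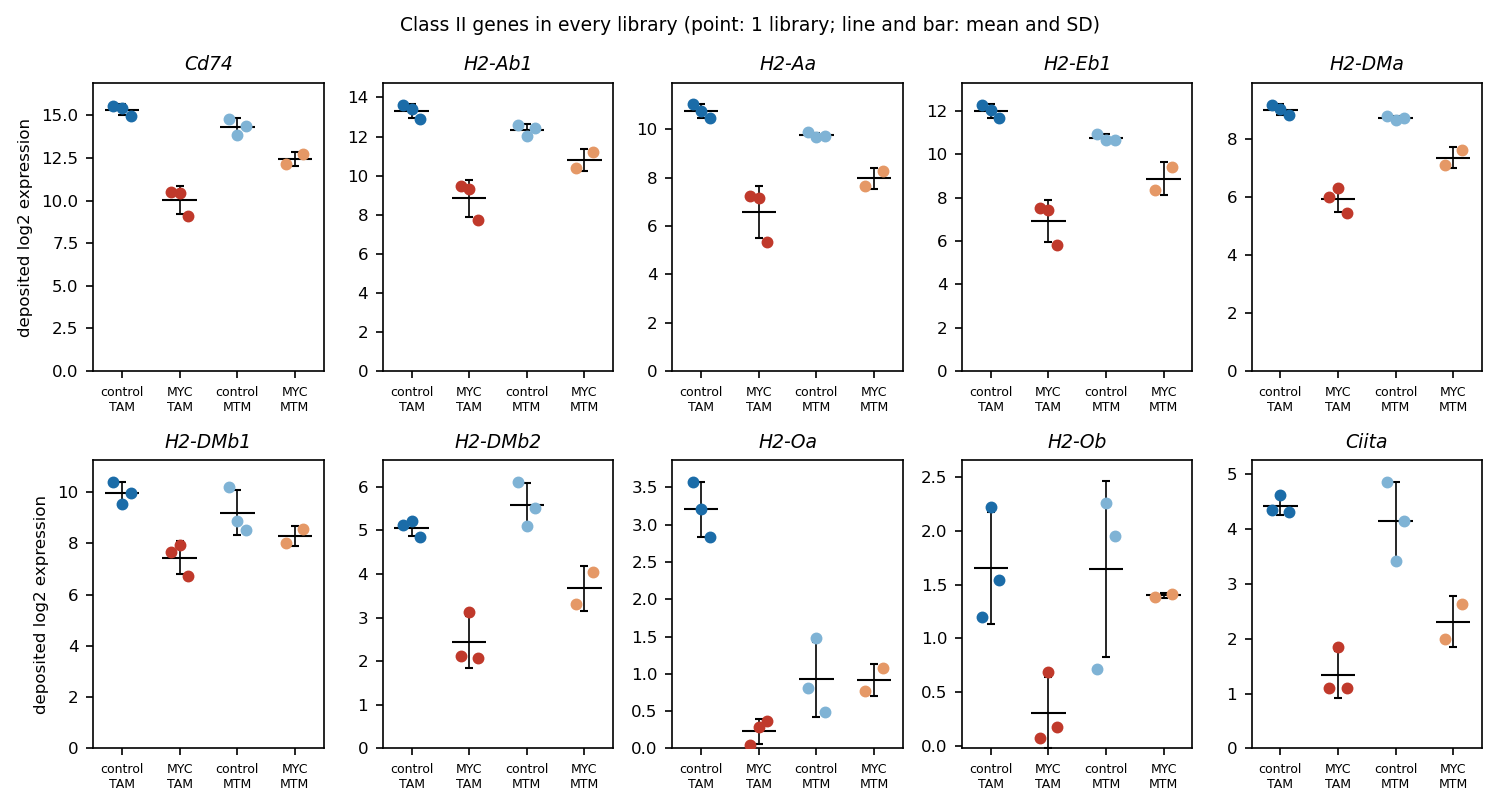
Deposited log2 expression (vertical axis, 1 panel per gene) of the 10 genes in the 4 groups; each point is 1 library, the line is the group mean and the bar its SD (n = 3, and 2 for MYC MTMs). In every panel the MYC TAM libraries are below the control TAM libraries, for Cd74 at 9.10 to 10.52 against 14.98 to 15.57.

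Cd74 had the deepest fall of the set. It stood at 15.57, 15.45 and 14.98 in the control TAMs of mice 1, 3 and 5, and at 10.52, 10.47 and 9.10 in the MYC TAMs of mice 2, 4 and 6. In each control TAM library it had the highest value of all genes, and in the MYC TAM libraries it ranked between 31 and 65. The difference was -5.30 ± 0.45 (log2, ± SE from limma; adjusted p = 8.96e-05), or 39.5-fold lower, and was the 5th most negative of all 17475 genes.

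The classical chains, which form the peptide-binding molecules at the cell surface, followed Cd74. H2-Ab1, the beta chain of I-A, was at 13.60, 13.39 and 12.92 in control TAMs and at 9.45, 9.34 and 7.73 in MYC TAMs. H2-Aa, its alpha chain, was at 11.03, 10.74 and 10.48 and at 7.25, 7.14 and 5.32. H2-Eb1, the beta chain of I-E, was at 12.27, 12.06 and 11.67 and at 7.51, 7.45 and 5.80. The groups were far apart for all of these genes and the library of MYC mouse 6 was the lowest each time. H2-Ab1 fell by 4.47 ± 0.46 (22.1-fold lower, adjusted p = 0.00025, limma), H2-Aa fell by 4.18 ± 0.45 (18.1-fold, adjusted p = 0.000346) and H2-Eb1 fell by 5.08 ± 0.45 (33.9-fold, adjusted p = 0.000126). Without MYC TAM mouse 6 the difference for H2-Aa was -3.56, or 11.8-fold lower. The alpha chain partner of H2-Eb1, which B6 mice do not make because of a deletion in H2-Ea, was not analysed here.

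The H2-DM genes, whose products load the peptides, fell less far. H2-DMa was at 9.17, 9.03 and 8.82 in control TAMs and at 5.98, 6.31 and 5.45 in MYC TAMs, a difference of -3.10 ± 0.23 (8.55-fold lower, adjusted p = 5.25e-05, limma). H2-DMb1 was at 10.41, 9.52 and 9.96 and at 7.65, 7.94 and 6.71, a difference of -2.53 ± 0.47 (5.77-fold, adjusted p = 0.00622). H2-DMb2 was at 5.12, 5.22 and 4.86 and at 2.11, 3.12 and 2.08, a difference of -2.63 ± 0.35 (6.19-fold, adjusted p = 0.00104). The H2-DMb1 and H2-DMb2 genes are near-identical neighbours. In GENCODE M21, 369 stretches of 50 bases were common to both, out of 1629 in H2-DMb1 and 1741 in H2-DMb2, and how the counting treated reads from them is not given in the sources used here, so the split between these genes is uncertain.

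The H2-O genes had the lowest levels of the set in TAMs, below Ciita. H2-Oa was at 3.57, 3.22 and 2.83 in control TAMs and at 0.04, 0.28 and 0.37 in MYC TAMs. With the lowest library taken as having no read, that is an estimated 234 to 411 reads against 0 to 10.97. The difference was -2.98 ± 0.28 (adjusted p = 0.000167, limma), or 7.87-fold lower on the scale with 1 added; with 0.1 added in place of 1 it was -5.05. Of the stretches of 50 bases in H2-Oa transcripts 15.5% also lie on the opposite strand of another gene, as do 8.43% of those in H2-DMa; the kit was stranded, but whether strand was used in counting is not given in the sources used here. H2-Ob was at 1.20, 2.22 and 1.54 in control TAMs and at 0.07, 0.68 and 0.18 in MYC TAMs, and its difference of -1.35 ± 0.40 narrowly missed the threshold (adjusted p = 0.0506, limma). It passed under 7 of 20 alternative settings, among them quantile normalisation (adjusted p = 0.0450) and a random effect for the mouse (adjusted p = 0.0440), with adjusted p from 0.0160 to 0.240 over all of them.

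Ciita itself, the coactivator of the set, was at 4.35, 4.62 and 4.31 in control TAMs and at 1.10, 1.84 and 1.10 in MYC TAMs. The difference was -3.08 ± 0.36 (8.47-fold lower, adjusted p = 0.000543, limma), and -3.69 with 0.1 added in place of 1. Ciita was thus low in the same libraries as the genes it activates. Among the MYC TAM libraries their order was not the same: mouse 6 was lowest for Cd74 and the classical chains but level with mouse 2 for Ciita.

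Some pairs of genes fell by unequal amounts, as their differences within each library show. Cd74 was above H2-Ab1 by 1.97 to 2.06 log2 units in control TAMs and by 1.07 to 1.37 in MYC TAMs. H2-Ab1 was above H2-Eb1 by 1.25 to 1.33 in control TAMs and by 1.89 to 1.94 in MYC TAMs. In both cases the ranges of the control and MYC libraries did not overlap. Of the other pairs examined in TAMs, that also held for H2-Ab1 over H2-Aa, H2-DMb1 over H2-DMa and Cd74 over Ciita. The ranges did overlap for H2-DMa over H2-Oa, H2-DMb1 over H2-Ob and H2-DMb1 over H2-DMb2. H2-Oa and H2-Ob were near 0 in MYC TAMs, where the added 1 understates a fall. With 0.1 added in place of 1, H2-Oa fell by -5.05 rather than -2.98 and H2-Ob by -2.92 rather than -1.35. Overlap in the pairs with these genes thus does not show equal falls. The fall of Ciita is understated too, by less. The share of gene pairs without overlap over all genes was not computed. In MTMs Cd74 was above H2-Ab1 by 1.82 to 2.19 in controls and by 1.55 to 1.77 in MYC, and the ranges did not overlap. H2-Ab1 was above H2-Eb1 in MTMs by 1.37 to 1.78 in controls and by 1.77 to 2.06 in MYC, and the ranges overlapped.

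**Figure D2:**
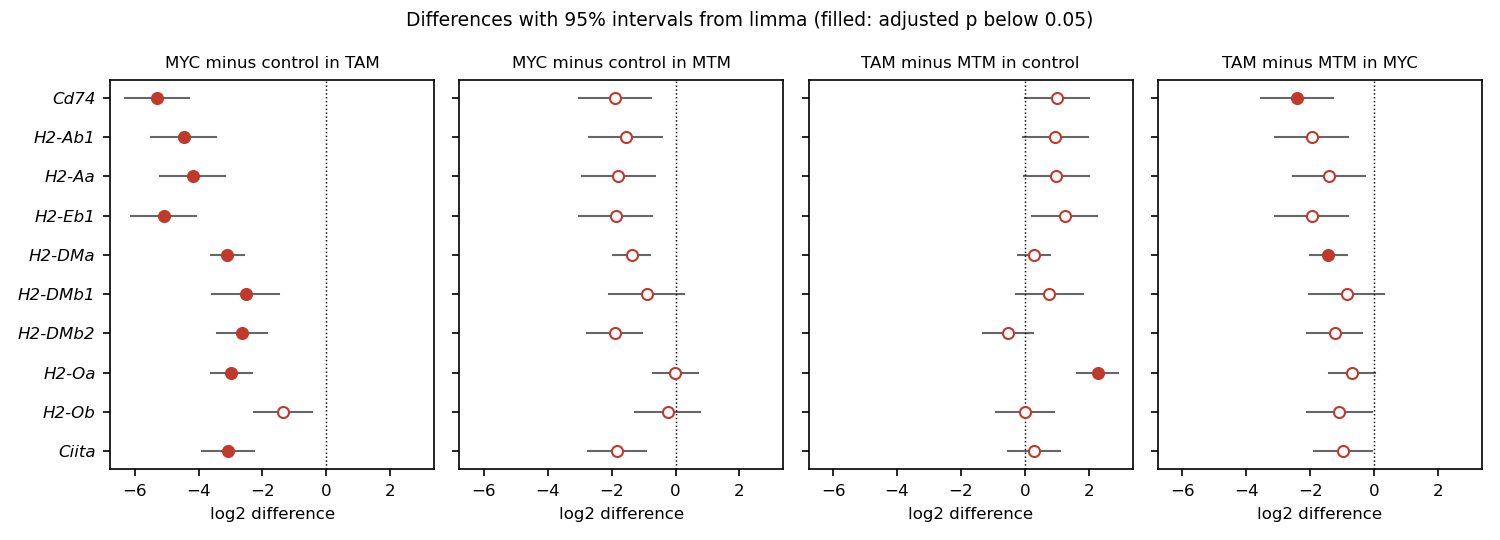
Log2 differences (horizontal axis) of the 10 genes in the 4 comparisons between groups, with 95% intervals from limma; filled points passed the threshold of 0.05 on adjusted p. In TAMs 9 of 10 points are filled and all are left of 0, from -5.30 for Cd74 to -1.35 for H2-Ob, and in MTMs all are open.

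In MTMs no gene of the set passed between MYC and control mice, although most values were lower. Cd74 was at 14.79, 13.83 and 14.40 in the control MTMs of mice 1, 3 and 5 and at 12.16 and 12.74 in the MYC MTMs of mice 2 and 4. H2-Ab1 was at 12.59, 12.02 and 12.43 and at 10.39 and 11.19, and Ciita was at 4.87, 3.43 and 4.14 and at 1.99 and 2.64. In these genes both MYC libraries were below all of the control libraries. The same held for H2-Aa, at 9.88, 9.70 and 9.71 in control MTMs and at 7.67 and 8.28 in MYC MTMs, and for H2-Eb1, at 10.95, 10.65 and 10.65 and at 8.33 and 9.42. Yet 0 of the 10 genes passed the test, against 0.28% of all genes that fell and 0.618% that passed in either direction. At an unadjusted p under 0.05 there were 7 of the 10, and 1760 of all genes. The log2 differences were negative for all 10 genes with a median of -1.67, against -0.02 over all genes, and that of H2-Oa was 0.00 to 2 decimals. In 7 of the 10 every MYC library was below every control library, which held for 20.1% of all genes.

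The values nearest to the threshold in MTMs were those of H2-DMa, H2-DMb2 and Ciita. H2-DMa was at 8.79, 8.64 and 8.73 in control MTMs and at 7.09 and 7.60 in MYC MTMs (-1.37 ± 0.25, adjusted p = 0.0544, limma). H2-DMb2 was at 6.12, 5.11 and 5.53 and at 3.31 and 4.04 (-1.91 ± 0.39, adjusted p = 0.0763). The difference for Ciita was -1.83 ± 0.40 (adjusted p = 0.103) and that for Cd74 -1.89 ± 0.50 (adjusted p = 0.168). With 2 MYC libraries these intervals are wide, running for Cd74 from -3.01 to -0.77, and a missed threshold does not show that the levels were alike. H2-DMb1, H2-Oa and H2-Ob overlapped between the genotypes in MTMs. H2-Oa was at 0.81, 1.48 and 0.49 in control MTMs and at 0.77 and 1.07 in MYC MTMs. H2-DMb1 was at 10.20, 8.88 and 8.51 in control MTMs and at 8.02 and 8.56 in MYC MTMs, and H2-Ob was at 0.72, 2.26 and 1.95 and at 1.38 and 1.42, so that for both the MYC values lay within or close to the spread of the controls.

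Between the cell types of control mice, H2-Oa was the exception in the set. It was higher in TAMs than in MTMs by 2.28 ± 0.28 (4.86-fold, adjusted p = 0.00272, limma), with 234 to 411 estimated reads in TAMs and 14.0 to 70.8 in MTMs. It was the only gene of the 10 to pass, and over all genes 0.744% were higher in TAMs and 2.37% passed in either direction. That call was lost when only the groups compared were fitted (adjusted p = 0.0678). Cd74, H2-Aa, H2-Ab1, H2-Eb1 and H2-DMa were also higher in every control TAM library than in every control MTM library, which with H2-Oa makes 6 of 10 genes, against 6.9% of all genes. Their differences of 0.29 to 1.25 did not pass (adjusted p from 0.263 to 0.800, limma). The gap between the H2-DM and H2-O alpha chains was accordingly narrower in control TAMs, where H2-DMa exceeded H2-Oa by 5.60 to 5.99 log2 units, than in control MTMs, where it did so by 7.16 to 8.24.

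Ciita overlapped between the cell types of control mice. It was at 4.31 to 4.62 in TAMs and 3.43 to 4.87 in MTMs, and the difference of 0.28 ± 0.36 had an interval from -0.53 to 1.09 (adjusted p = 0.971, limma). H2-DMb2 and H2-Ob overlapped as well, with differences of -0.52 ± 0.35 and 0.01 ± 0.40. H2-Ob reached 2.26 in a control MTM library and 2.22 in a control TAM library, both of mouse 3, and was at 0.72 and 1.20 in mouse 1.

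In MYC mice TAMs had the lower levels. For the 6 genes higher in every control TAM library, that order was the opposite of the control one. H2-DMb2 already had the lower mean in TAMs of control mice (-0.52), and H2-DMb1, H2-Ob and Ciita overlapped there. All 10 genes were lower in every MYC TAM library than in both MYC MTM libraries, as were 23.5% of all genes. Only Cd74 and H2-DMa passed the test (2 of 10, against 3.82% of all genes lower and 4.49% in either direction). Cd74 was at 9.10 to 10.52 in TAMs and at 12.16 and 12.74 in MTMs, a difference of -2.42 ± 0.50 (5.35-fold lower, adjusted p = 0.0268, limma). H2-DMa was at 5.45 to 6.31 in TAMs and at 7.09 and 7.60 in MTMs, a difference of -1.43 ± 0.25 (2.70-fold, adjusted p = 0.0138). Both calls rest on few libraries: each was lost without either of the MYC MTM libraries (adjusted p of 0.131 and 0.228 for Cd74 and 0.0541 and 0.1498 for H2-DMa), and the call of Cd74 with the mouse as a fixed block too (-1.95, adjusted p = 0.0665). Cd74 was also lost without MYC TAM mouse 4 (adjusted p = 0.0884) and without control MTM mouse 5 (0.0518). With only the groups compared both were lost (adjusted p of 0.181 for Cd74 and 0.168 for H2-DMa). With each library centred on macrophage markers, an alternative added after the data had been seen, the difference for H2-DMa shrank to -0.59 and its call was lost (adjusted p = 0.290), and that for Cd74 shrank to -1.57 and was still called (adjusted p = 0.0319).

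**Figure D3:**
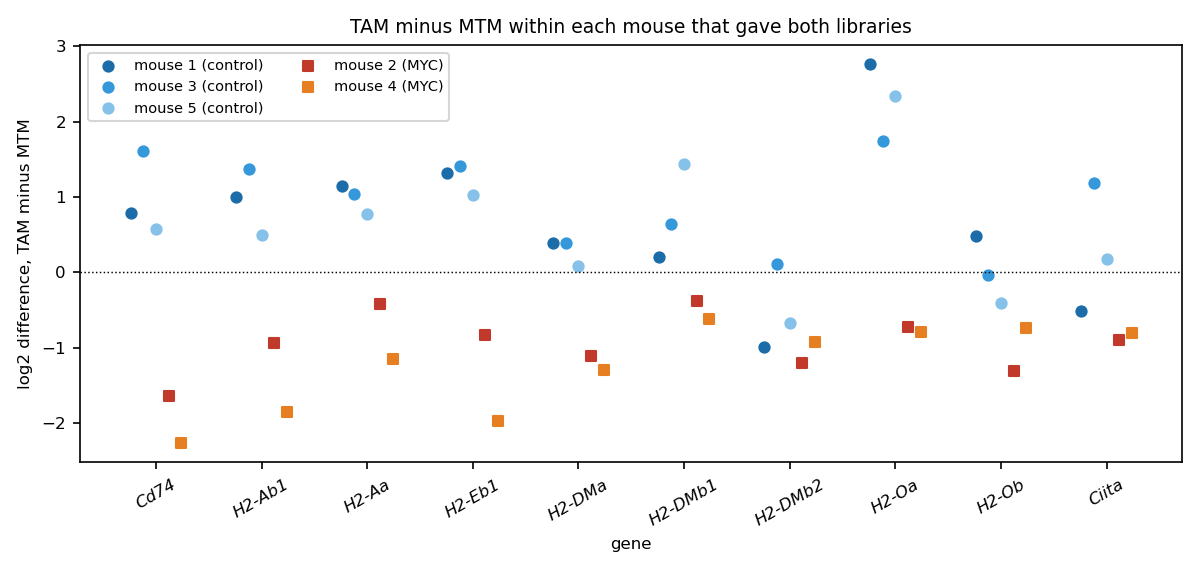
TAM minus MTM log2 difference (vertical axis) of each gene within the 5 mice that gave both libraries; circles are control mice and squares are MYC mice. The squares are below 0 for all 10 genes, while for Cd74 the circles lie from 0.58 to 1.62.

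Within single animals most of the set showed the same reversal. In control mice 1, 3 and 5 the TAM library was above the MTM library of the same mouse for 8, 9 and 8 of the 10 genes, and in MYC mice 2 and 4 for 0 of 10. The exceptions among control mice were H2-DMb2 in mice 1 and 5, H2-Ob in mice 3 and 5 and Ciita in mouse 1. For Cd74 the differences within a mouse were 0.58 to 1.62 in controls and -2.27 and -1.64 in MYC. For H2-Eb1 they were 1.02 to 1.41 and -1.97 and -0.83. H2-Oa differed by 1.74 to 2.76 in controls and by -0.79 and -0.73 in MYC.

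The difference between these cell type differences was itself tested. It was negative for all 10 genes, with a median of -2.06 against 0.01 over all genes, and 3 of the 10 passed: H2-Oa (-2.97 ± 0.43, adjusted p = 0.0148, limma), Cd74 (-3.41 ± 0.67, adjusted p = 0.0453) and H2-DMa (-1.72 ± 0.34, adjusted p = 0.0486). Over all genes 0.996% passed on that side and 1.24% in either direction. With the mouse as a fixed block none of them passed (adjusted p of 0.0596, 0.0977 and 0.0734), and without either MYC MTM library none did. Over 20 alternatives the calls of Cd74 and H2-DMa were each lost in 13 and that of H2-Oa in 4. Without MYC TAM mouse 6 there were 6. H2-Eb1 (-3.21 ± 0.68, adjusted p = 0.0631) and H2-Ab1 (-2.91 ± 0.69, adjusted p = 0.0910) were close to the threshold. The calls in this comparison therefore turn on single libraries, whereas in TAMs each of the 9 genes called lower in MYC mice was called without any single library.

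Set by level, the groups had one order in most of the set. For Cd74, H2-Aa, H2-Ab1, H2-Eb1, H2-DMa and H2-DMb1 it ran from control TAMs through control MTMs and MYC MTMs down to MYC TAMs. No neighbours in that order overlapped for Cd74, H2-Aa, H2-Ab1, H2-Eb1 and H2-DMa, though of the steps only that from MYC MTMs to MYC TAMs passed the test, for Cd74 and H2-DMa. Ciita had the same order of means (4.43, 4.14, 2.31 and 1.34), with control TAMs and control MTMs overlapping. H2-DMb2 differed in having its highest mean in control MTMs (5.58 against 5.07 in control TAMs), and H2-Oa had nearly level means in the MTMs of both genotypes, 0.93 in control and 0.92 in MYC, with control TAMs above them at 3.21 and MYC TAMs below them at 0.23.

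Over the 11 libraries the genes differed in how closely they followed Cd74. Pearson's correlation with Cd74 was 0.996 for H2-Ab1, 0.992 for H2-Eb1, 0.991 for H2-DMa, 0.985 for H2-Aa and 0.962 for Ciita, and lower for H2-DMb2 (0.928), H2-DMb1 (0.925), H2-Oa (0.756) and H2-Ob (0.709). The order depended on the gene of reference: with Ciita, H2-DMb2 had the highest value (0.968), above H2-DMa (0.965) and Cd74 (0.962). H2-Oa (0.679) and H2-Ob (0.632) were again the lowest, and both were near 0 in MYC TAMs. These libraries share mice and fall into 4 groups, so the values describe the group pattern. Among 3347 other genes with a mean of at least 1 and an SD of at least 0.5, the 5 most like Ciita were Tmprss2 (0.972), Dapp1 (0.968), Chpf (0.963), Tbc1d8 (0.962) and Gpr35 (0.960). The 5 most like the mean of Cd74, H2-Aa, H2-Ab1 and H2-Eb1 were Tanc2 (0.982), Plbd1 (0.981), Ggt5 (0.978), 0610040J01Rik (0.978) and Camkk1 (0.976). Camkk1 was at 3.13 to 3.54 in control TAMs, 2.19 to 2.37 in control MTMs, 1.00 and 1.63 in MYC MTMs and 0.05 to 0.36 in MYC TAMs, the order of groups seen in Cd74.

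The factors that act with or upstream of CIITA on class II promoters were compared in the same libraries. Of 19 measured regulators of class II transcription 3 were lower in MYC TAMs and none higher, a count near the background of 12% of all genes lower and 3.89% higher, and the median difference was -0.16. Rfx5, Rfxap and Rfxank, the subunits of RFX, differed by 0.02, 0.25 and -0.39, none past the threshold (adjusted p from 0.280 to 0.964, limma). Those that passed were Irf8, a factor of macrophage and dendritic cell identity (-0.86 ± 0.12, adjusted p = 0.00147), Creb1 (-0.79 ± 0.17, adjusted p = 0.0121) and Ep300, an acetyltransferase (-1.15 ± 0.29, adjusted p = 0.0258). Irf8 was at 5.82, 5.65 and 5.59 in control TAMs and at 4.54 to 5.02 in all the other libraries. Like H2-Oa it was higher in TAMs than MTMs of control mice (1.06 ± 0.12, adjusted p = 0.00168), and the difference between the genotypes in this respect passed (-1.17 ± 0.18, adjusted p = 0.0184). Irf4 was lower in TAMs than in MTMs in both control (-0.61) and MYC mice (-0.55), but its level was low in every library. It was at 0.01 to 0.16 in TAMs and 0.59 to 0.74 in MTMs.

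Interferon-gamma is the main inducer of Ciita, and genes of its response were given for comparison. Of 20 measured, 5 fell and 1 rose in MYC TAMs, against 12% and 3.89% of all genes, with a median of -0.57. The genes that fell included Cxcl10, a chemokine (-2.86 ± 0.40, adjusted p = 0.00139, limma), Gbp4 (-1.86 ± 0.31, adjusted p = 0.00356) and Gbp3 (-1.40 ± 0.24, adjusted p = 0.00418), both guanylate-binding proteins. Cd274, which encodes PD-L1 and is also induced by interferon, went the other way, from 2.29 to 2.80 in control TAMs to 5.18 to 5.80 in MYC TAMs (2.90 ± 0.27, adjusted p = 0.000151), and it rose in MTMs too (2.64 ± 0.30, adjusted p = 0.00733). Irf1, an interferon-induced transcription factor (-0.16, adjusted p = 0.881, limma), and Nlrc5, the class I counterpart of Ciita (-0.88, adjusted p = 0.0832), did not pass.

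**Figure D4:**
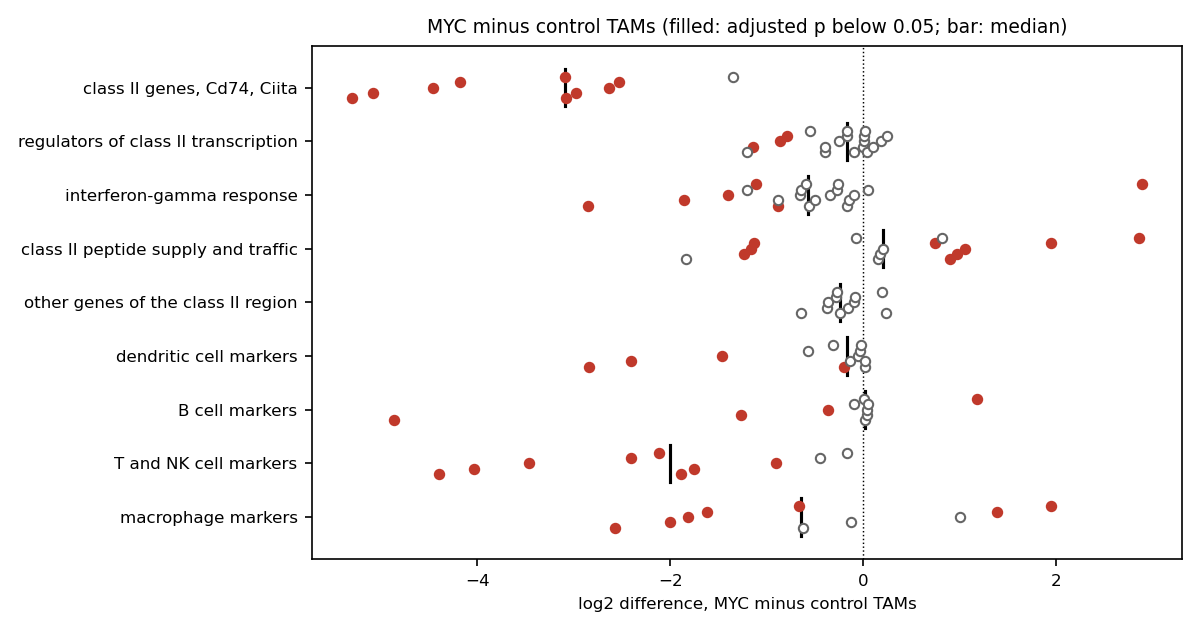
Log2 difference between MYC and control TAMs (horizontal axis) of each gene of the class II set and of 8 other gene lists; filled points passed the threshold of 0.05 on adjusted p, and the black bar is the median of the list. The class II row has its median at -3.09, and the rows of class II regulators and of other genes of the class II region have theirs at -0.16 and -0.24.

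The other genes of the class II region on chromosome 17 include class I helpers such as the proteasome subunit Psmb8. Of 11 measured, 0 passed in MYC against control TAMs, where 15.9% of all genes did, and the median was -0.24. Psmb8 was at 6.61 to 6.73 in control TAMs and 6.07 to 6.43 in MYC TAMs, and Tap1, which feeds peptides to class I, was at 5.85 to 6.40 and at 5.38 to 5.57. In control mice Btnl2, a butyrophilin-like gene at low level, was lower in TAMs than in MTMs (-0.41 ± 0.07, adjusted p = 0.0177, limma).

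The genes that supply class II with peptides changed in both directions. Of 15 measured, 6 rose and 3 fell in MYC TAMs, against 3.89% and 12% of all genes, with a median of 0.21. Lysosomal proteases were among those that rose, with Ctsl going from 7.05 to 7.36 in control TAMs to 9.19 to 11.27 in MYC TAMs (2.87 ± 0.43, adjusted p = 0.00197, limma) and Ctsd from 11.32 to 12.51 to 13.63 to 14.27 (1.95 ± 0.37, adjusted p = 0.00697). Ctss, the cathepsin that trims CD74 in antigen-presenting cells, rose by 0.90 ± 0.19 (adjusted p = 0.0125) and so moved opposite to its substrate. Rab7, a GTPase of late endosomes, rose by 0.75 ± 0.12 (adjusted p = 0.00295). Ifi30, the thiol reductase GILT that unfolds antigens in the lysosome, fell by 1.14 ± 0.20 (adjusted p = 0.00464), as did Cst3, the cathepsin inhibitor cystatin C (-1.16 ± 0.21, adjusted p = 0.00547), and Sppl2a, the protease that clears the membrane stub of CD74 (-1.23 ± 0.32, adjusted p = 0.0295). Between MYC TAMs and MYC MTMs, Ctss (1.13 ± 0.22) and Cd63 (1.53 ± 0.31) were higher in TAMs and Ifi30 lower (-1.09 ± 0.22). None of the 15 passed in MTMs between the genotypes, where only 0.618% of all genes did, so that count says little about these genes.

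Dendritic cells and B cells also make class II, and some of their markers were lower in MYC TAMs, although the gate took F4/80+ cells and left out cells with B220, a B cell surface marker. Counts of markers in the comparison of TAMs stand against 12% of all genes lower and 3.89% higher. Of 12 dendritic cell markers 4 were lower in MYC TAMs and none higher, with a median of -0.17, led by Batf3 (-2.40 ± 0.22, adjusted p = 0.000142, limma) and Dpp4 (-2.84 ± 0.34, adjusted p = 0.000584). Summed on the linear scale the list stood at 26.9 to 33.7 in control TAMs, 46.1 to 92.3 in control MTMs, 13.2 to 25.4 in MYC MTMs and 6.61 to 8.17 in MYC TAMs. Zbtb46 and Xcr1, both on the list, were at 0.27 or less in every library. Flt3, also on the list, was at 1.43 and 1.45 in MYC MTMs and at 0.92 or less in all other libraries. Cd209a, a lectin gene of the list that weighs on the sum, was at 4.18 to 5.99 in control MTMs and at 0.62 to 0.83 in control TAMs. Of 10 B cell markers 3 were lower in MYC TAMs and 1 higher, with a median of 0.02, and the sums were 56.7 to 76.3 in control TAMs, 57.6 to 65.1 in control MTMs, 43.1 to 49.6 in MYC MTMs and 28.8 to 38.1 in MYC TAMs. Ighm, an immunoglobulin heavy chain gene, was at 5.24 to 5.75 in control TAMs and 0.46 to 0.90 in MYC TAMs (-4.86 ± 0.21, adjusted p = 2.87e-06), while Pax5, a defining factor of B cells, was at 0.13 or less in every library. The part of these cells in the class II differences was not tested.

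RNA of cells that make little class II also differed between the groups. T and NK cell markers summed to 62.3 to 140 in control TAMs, 15.9 to 41.6 in control MTMs, 2.12 to 12.03 in MYC MTMs and 3.02 to 7.32 in MYC TAMs, and 8 of 10 fell in MYC TAMs. Epithelial markers summed to 737 to 1496, 631 to 1015, 388 to 489 and 38.8 to 417 in the same order, the lowest in MYC TAM mouse 6, and 5 of 12 fell. Of 8 monocyte markers 2 passed as higher in MYC TAMs and none as lower, and the median difference over the list was only 0.02. Those that passed were Chi3l3 (7.62 ± 0.60, adjusted p = 6.92e-05, limma) and F13a1 (3.62 ± 0.35, adjusted p = 0.000174). In control mice 3 of the 8 were lower in TAMs than in MTMs, where 2.37% of all genes passed in either direction. F13a1 was lower by the widest margin (-7.58 ± 0.35, adjusted p = 1.69e-05, limma). Macrophage markers were not constant either: of 10, Cd68 (1.95 ± 0.15, adjusted p = 6.61e-05, limma) and Lyz2 (1.39 ± 0.33, adjusted p = 0.0198) rose and 5 fell in MYC TAMs, led by Csf1r (-2.57 ± 0.20, adjusted p = 6.34e-05). Their summed level on the linear scale was 13045 to 17023 in control TAMs and 18472 to 29844 in MYC TAMs. Lyz2, at 12.36 to 12.96 in control TAMs and 13.68 to 14.57 in MYC TAMs, weighs on that sum. The mean of the log2 values of the 10 markers was 8.40 to 9.51 in control TAMs and 8.28 to 8.80 in MYC TAMs. With each library centred on the mean of these 10 markers, an alternative added after the data had been seen, the same 9 class II genes fell in MYC TAMs, and the difference for Cd74 was -4.80. The part of these markers in the class II differences was likewise not tested.

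Library content was also unequal. In MYC TAM mouse 4 600 genes were at their lowest value, against 2087 to 3646 in the other libraries, and the labels give RNA integrity numbers from 3.3 to 9.6 without saying which library had which. Leaving out MYC TAM mouse 4 and mouse 6 together, an alternative also added after the data had been seen, 8 of the 10 genes were still called lower in MYC TAMs; H2-DMb1 was lost (-2.31, adjusted p = 0.0784, limma), and the differences for H2-Aa, H2-Ab1 and H2-Eb1 were -3.50, -3.86 and -4.49. That leaves the MYC TAM library of mouse 2, whose spread is then taken to be that of the other groups.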

How the data were processed

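The authors used HISAT2 and the mm10 (GRCm38.p5) build for the reads of the 11 libraries, and DESeq2 in a role that is not given, per the submitters' processing notes. The counter, the annotation and the formula of the values are not given in the sources used here. The authors deposited a log2 expression value per gene and library for 17475 genes. Among genes that shared a floor, 89.6% of 6346 low values were whole reads of 1 or 2 within a tolerance of 0.05, and depth was estimated from that spacing and GENCODE M21 exon lengths (93.2% of genes had one). The estimates cover counting error only. There were 68 entries that shared a symbol with another, none of them in the class II set.

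The test was limma 3.58.1 under R 4.3.3, fitting 4 group means to all 11 libraries, variances that follow a trend with level, no block, two-sided p adjusted by Benjamini-Hochberg over 17475 genes, threshold 0.05, for 5 comparisons. The fit was tested on simulated data. TAMs and MTMs of a number come from the same mouse, per the labels; their deviations from the group means correlated at 0.176, 0.211 and 0.0779 in control mice 1, 3 and 5 and 0.0983 and 0.0379 in MYC mice 2 and 4. Alternatives were quantile normalisation, median centring, a minimum mean of 1, a pseudocount of 0.1, no trend, only the groups compared, the mouse as a block, and leaving out each library; centring on macrophage markers and leaving out mice 4 and 6 were added after seeing the data.

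The genes of the set and the lists (class II regulators, interferon-gamma response, peptide supply, other class II region genes, and markers of macrophages, monocytes, dendritic, B, T and NK and epithelial cells) were chosen with earlier results of these data known. The text names all genes of the set, of each list up to 3 per comparison with the smallest adjusted p among those that passed, Rfx5, Rfxap, Rfxank, Ctss, Ifi30, Irf1, Irf8 and Nlrc5, marker genes at high level, and the genes most like the set; some named by that rule are not reported here. Ctsd, Cst3, Sppl2a, Psmb8, Tap1, the genes of the gate, Myc, Flt3 and the dendritic and B cell markers near 0 were chosen after their values were seen. Python 3.11.15 with pandas 2.3.3, numpy 2.4.6 and matplotlib 3.10.9 was used for the promoters and figures.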

Additional observations from a re-analysis of the deposited data

Results flagged for a closer look

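In 3 of the 10 genes the TAM minus MTM difference was not the same in MYC and control mice, by a test of that difference in limma: Cd74 (-3.41, adjusted p = 0.0453), H2-DMa (-1.72, adjusted p = 0.0486) and H2-Oa (-2.97, adjusted p = 0.0148). For Cd74 the TAM minus MTM difference was 0.99 in control and -2.42 in MYC mice, for H2-DMa 0.29 and -1.43, and for H2-Oa 2.28 and -0.69. Over all genes 0.996% passed with a negative value and 1.24% in either direction. None of the 3 passed with the mouse as a fixed block (adjusted p of 0.0977, 0.0734 and 0.0596 in the order above) or without either MYC MTM library.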

How the results depend on the processing

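The fall of the set in MYC TAMs held at 9 or 10 genes when any single library was left out. The other counts of genes past the threshold depended more on the settings, and the cause was not tested. Leaving out single libraries gave 1 to 2 between the control cell types, 0 to 2 between the MYC cell types, 0 to 3 in MTMs and 0 to 6 for the difference of differences. With only the groups compared, the counts were 0 in control and 0 in MYC for the cell types. Centring on macrophage markers gave 2 in control, 1 in MYC and 5 in MTMs. The marker mean used there was 8.40 in control TAM mouse 5, where Aif1 was at 0.24, against 9.51 and 9.02 in control TAM mice 1 and 3. A mean of at least 1 gave 4 in MYC, 2 in MTMs and 5 for the difference of differences. Median centring gave 2 in MTMs and quantile normalisation 1 for the difference of differences. With the mouse as a fixed replicate block the counts were 1 in MYC and 0 for the difference of differences, and with it as a random block 1 in MTMs; the pairing by mouse changed no other count of the set by over 1.5 times. Leaving out MYC TAM mice 4 and 6 together they were 1 in MYC, 2 in MTMs and 1 for the difference of differences.

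Values near 0 changed sign in 11 of 1020 cases, none of them past the threshold. In MTMs between the genotypes H2-Oa went to 0.0925 (quantile normalisation), 0.112 (median centring), 0.0785 (pseudocount of 0.1) and 0.0044 (random replicate block), and to between -0.223 and 0.271 without single libraries, H2-Ob to between -0.706 and 0.0674. Without single libraries, H2-Ob went to between -0.450 and 0.323 and Ciita to between -0.0774 and 0.644 between the control cell types, where control MTM mice 1 and 3 and control TAM mouse 3 decided the sign. Between the MYC cell types H2-Oa went to 0.151 (centring on macrophage markers). In MYC TAMs H2-Oa had an estimated 0 to 10.97 reads and H2-Ob 0 to 10.03, so their values there lie near the floor.

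Counts over all genes also moved with the settings. In TAMs between the genotypes 2778 genes passed, and 1471 (centring on macrophage markers, 1019 of them higher) to 5029 (median centring) under the alternatives; in MTMs 108, and 0 (only the groups compared) to 151 (a mean of at least 1). Between the control cell types 414 passed, and 196 (only the groups compared) to 542 (random block); between the MYC cell types 784, and 90 (only the groups compared) to 1788 (centring on macrophage markers, 1662 of them higher). For the difference of differences 216 passed, and 21 (without MYC MTM mouse 2) to 424 (leaving out MYC TAM mice 4 and 6 together).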
